A study of Mus musculus with 4 samples.

Results

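Among the ribosomal RNA (rRNA) genes looked for, a single probe could be named through its transcript accession, that of the 28S rRNA gene Rn28s1. It was 1 gene of 22911 with a named probe, and 1 of 56605 non-control probes. The members were to be all non-control probes of Rn28s1, Rn18s and Rn45s, found by matching each probe's transcript accession to a RefSeq gene table. Of these 3 genes 1 matched. Rn18s and Rn45s had no transcript accession in that table, so no probe could be tied to them by this match. Probes were not searched by any gene name given with the array, which the rule would also have allowed. A probe of a noncoding transcript that may be 18S rRNA, the product of Rn18s, is described below by its probe name and is not counted as a member. The set was chosen by the measured iodine-minus-control difference of Rn28s1, already known from these data, so its values are given as a description, with no test.

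The 4 samples were total RNA of dorsal hippocampus, collected from female mice once a battery of behavioural tests was over. The control group held 2 samples (replicates 2 and 3) and the group on a 20-fold iodine intake also held 2 (replicates 2 and 3). The labels give no strain, age, length of treatment or pooling, and nothing in them says whether replicates came from different animals, so a p-value here reflects the spread among 4 samples and that spread may be technical. Each sample was labelled with Cy3 and hybridised to a 1-colour Agilent mouse array, and the arrays lay on 1 slide, controls to the left and iodine samples to the right, so slide position cannot be told apart from group.

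Ribosomal RNA is the catalytic and structural core of the ribosome and makes up most of the RNA of a cell. RNA polymerase I copies a long precursor from repeated genes in the nucleolus, and processing factors and small nucleolar RNAs (snoRNAs) cut and modify it into 18S, 5.8S and 28S rRNA. The 5S rRNA is made separately by RNA polymerase III. In neurons rRNA supply supports the protein synthesis that synapses draw on. The mature rRNAs carry no poly(A) tail of the kind found on messenger RNA, and the brightness of an rRNA probe on an expression array is therefore not a measure of how much of the cell's RNA is rRNA. The 28S genes are present in many near-identical copies, which 1 probe cannot tell apart, and fewer cells of a type and less RNA per cell cannot be told apart in bulk tissue.

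Probes well above background numbered 37535 to 37921 per array, and 0 spots were saturated. The control arrays had 75th percentiles of 158.8 and 154.2 processed-signal units, the iodine arrays 149.7 and 144.3. All 6 hippocampal neuron markers (Neurod6, Prox1, Wfs1, Spink8, Fibcd1 and C1ql2) were well above background on all 4 arrays.

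The Rn28s1 probe (A_55_P2736734) was brighter on both iodine arrays than on both control arrays. Its processed signal, the scanner's background-subtracted brightness, was 26232 in control replicate 2, 24324 in control replicate 3, 42882 in iodine replicate 2 and 39410 in iodine replicate 3. On the log2 scale, before any scaling between arrays, these were 14.68, 14.57, 15.39 and 15.27. The groups did not overlap, and the lowest iodine array stood 0.59 log2 units above the highest control array.

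After each array's 75th percentile was subtracted (with their mean restored), Rn28s1 stood at normalized log2 signals of 14.61 and 14.55 (controls) against 15.41 and 15.34 (iodine). The group means were 14.58 ± 0.05 (SD, n = 2) and 15.37 ± 0.05 (SD, n = 2). The difference, iodine minus control, was 0.79, a fold of 1.73, and the gap between the nearest arrays widened from 0.59 to 0.73. The scaling thus added 0.09 to the unscaled difference of 0.70, because the iodine arrays had the lower percentiles. Within the groups the 2 control arrays lay 0.07 apart and the 2 iodine arrays also 0.07 apart after scaling.

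**Figure D1:**
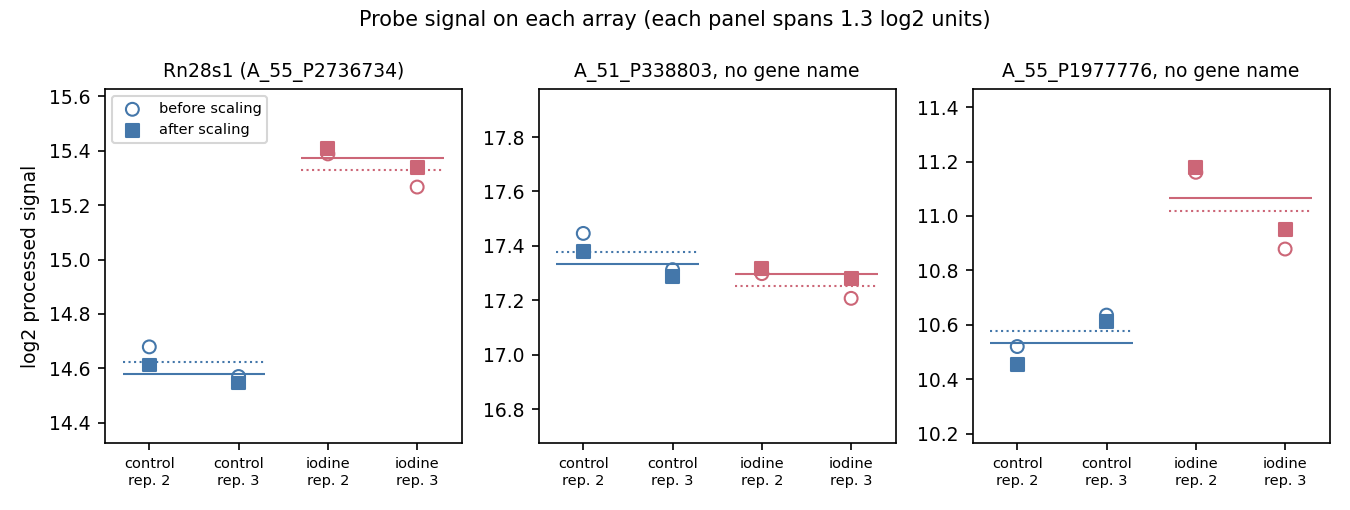
Log2 processed signal (vertical axis) of the Rn28s1 probe and of 2 bright or shifted probes without a gene name on each of the 4 arrays (horizontal axis), before scaling (open circles) and after subtraction of the 75th percentile (filled squares), with group means as lines. Rn28s1 lies at 14.55 to 14.61 in controls and 15.34 to 15.41 in iodine after scaling, A_51_P338803 overlaps between the groups after scaling, and A_55_P1977776 does not.

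Rn28s1 was measured by 1 spot per array, at row 227 and column 49 of the grid. The scanner software gave that spot a signal error of 10% on each array. The spot was well above background and carried no outlier or saturation flag on any array. Its local background was 15 or 16 units against spot medians of 25724 to 45221. The correction for spatial trends multiplied its background-subtracted signal by 0.938, 0.935, 0.942 and 0.924 on the 4 arrays, so nearly the same factor was applied in both groups. Around it, 77 spots within 5 rows and columns that were well above background on all arrays had a median difference of 0.04, with a largest value of 0.56. Within 10 rows and columns the median was 0.02 over 267 spots, and 0 of them reached the difference of Rn28s1. A large difference led to the choice of Rn28s1, so nothing is read from that count.

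The place of Rn28s1 among all probes was as follows. Of the 38228 probes kept (well above background on at least 2 of 4 arrays), 23.2% had iodine arrays that were all brighter than the control arrays, and 1.12% did so with a fold of at least 1.5. Downward, 0.976% did so, giving 430 probes higher and 373 lower. That split moved with the scaling in both directions, being 242 and 595 without scaling, 372 and 430 with scaling to the median, 351 and 440 with quantile normalization and 521 and 315 with scaling to spike-in probes. Settings that changed the background correction and took the median spot signal together gave 20 and 53 (normexp), 23 and 50 (normexp with quantile normalization) and 138 and 595 (median background subtracted). Rn28s1 belonged to the higher set, and since its separation led to its choice, nothing is read from that membership. A larger upward difference was found for 150 kept probes (0.392%). No probe of the array passed limma's adjusted p of 0.05 (0%, smallest adjusted p = 0.518), against 3451 (9.03%) with an unadjusted p under 0.05. With an intensity trend and robust variances in limma 53 probes passed, and with normexp 25 did.

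Rn28s1 was among the brightest probes. On the single arrays it ranked 139 and 146 by brightness in controls and 60 and 54 in iodine. Among the 383 probes in the brightest 1% of those kept, 19.1% were brighter on both iodine arrays, 0.522% also by at least 1.5-fold, which is 2 probes, and 1 probe (0.261%) was lower by that much. The differences of these bright probes ran from -0.18 at the 5th percentile to 0.12 at the 95th, and 1 of the 383, Rn28s1 itself, had a difference of 0.79 or more. That contrast led to the choice of Rn28s1, so nothing is read from its place. The second of the 2 probes, A_66_P113297, has no gene name here and stood at 0.59. The within-group SD of Rn28s1 was 0.05, against a median of 0.06 among the bright probes and 0.10 among all kept probes.

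**Figure D2:**
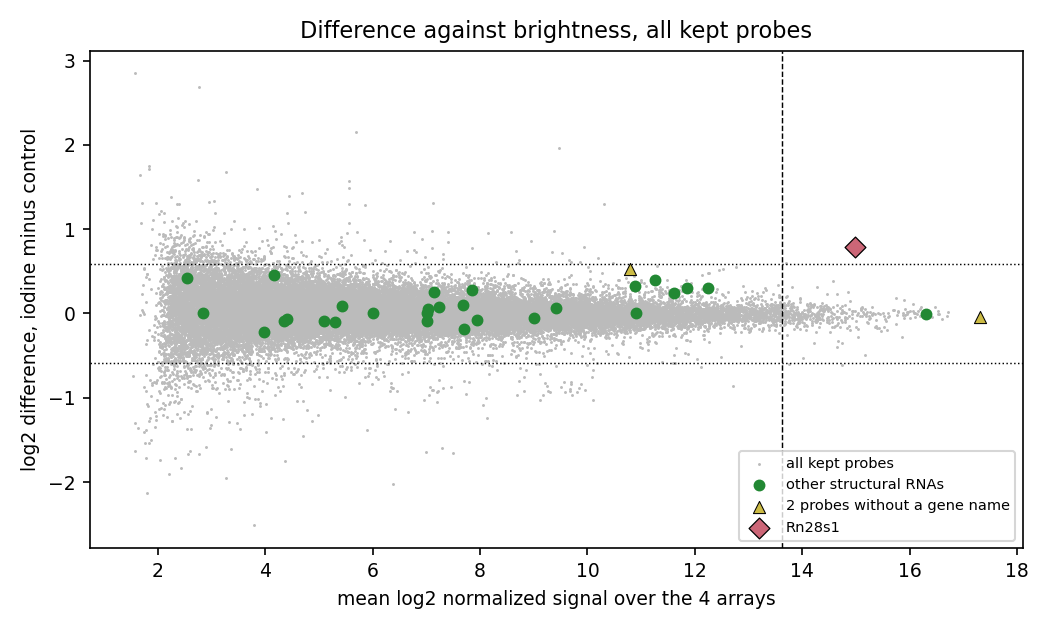
Log2 difference, iodine minus control (vertical axis), against the mean normalized log2 signal over the 4 arrays (horizontal axis) for 38228 kept probes. Rn28s1 (diamond) lies at 0.79 to the right of the dashed line that marks the brightest 1%, other structural RNAs are green, 2 probes without a gene name are triangles, and dotted lines mark a fold of 1.5.

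Another very bright noncoding RNA probe had groups that overlapped after scaling but not before it. A_51_P338803, which the array ties to the noncoding RefSeq transcript NR_003278, was the brightest probe on every array and was chosen for that after its values were seen. That transcript is believed to be 18S rRNA. The gene table does not hold it, so the identity could not be checked there, and its values may be those of a second rRNA. Its processed signal was 178518 and 162774 (controls) against 161132 and 151308 (iodine). Before scaling this probe was thus dimmer on both iodine arrays than on both control arrays. So were 40.1% of the 16793 named genes, a set that does not hold this probe. After scaling its log2 signals were 17.38 and 17.29 (controls) against 17.32 and 17.28 (iodine), so the groups overlapped and the difference was -0.04. That value was -0.13 without scaling and lay between -0.13 and 0.01 over all settings, changing sign in 2 of 16. Its difference of -0.04 thus stood beside 0.79 for Rn28s1, and the gap between them was not tested.

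The array held 51 kept probes of noncoding RefSeq transcripts outside the gene table. Of these, 13 were brighter on both iodine arrays and 8 dimmer on both, with a median difference of -0.01, where 23.2% and 18.4% of all kept probes separated in those directions. The largest upward difference among them was that of A_55_P1977776, named here for that reason. Its transcript, NR_003280, is believed to be 5.8S rRNA, which could not be checked with the gene table either. Its normalized log2 signals were 10.45 and 10.61 (controls) against 11.18 and 10.95 (iodine), a difference of 0.53 with no overlap of the groups. It ranged from 0.40 to 0.65 over all settings.

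The only other RNA on the array that the gene table types as rRNA was Rn4.5s, a short RNA polymerase III transcript of rodents. Its normalized log2 signals were 16.36 and 16.26 (controls) against 16.31 and 16.29 (iodine), with a difference of -0.01 ± 0.08 (SE, n = 2 per group; adjusted p = 0.987 by limma). The groups overlapped. The mitochondrial rRNA genes mt-Rnr1 and mt-Rnr2, like the other 13 members of the list of mitochondrially encoded RNAs, had no probe matched through the table.

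Structural RNAs other than rRNA, many of them also without a poly(A) tail, lay in both directions. A list of 10 named such RNAs had 6 tested, of which 3 were brighter on both iodine arrays and 1 dimmer on both, where 17.9% and 21.9% of all 16793 genes were. The list's median difference was 0.18, against -0.01 over all genes. None of the 6 passed limma's adjusted p of 0.05, and 3 had an unadjusted p under 0.05, all higher, as 3.89% of all genes did in that direction. The 3 were Rn7sk, Rn7s1 and Rpph1. That number was 1 without control replicate 2, 2 without control replicate 3, 1 without 20-fold iodine replicate 2 and 1 without scaling.

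Rn7sk encodes 7SK RNA, which holds the elongation factor P-TEFb inactive. Its normalized log2 signals were 10.71 and 10.75 (controls) against 11.09 and 11.02 (iodine), a difference of 0.33 ± 0.07 (SE, n = 2 per group; limma adjusted p = 0.668). Rn7s1 encodes 7SL RNA, the scaffold of the signal recognition particle that guides nascent secretory proteins to the endoplasmic reticulum. It had 11.12 and 10.99 (controls) against 11.51 and 11.39 (iodine), a difference of 0.40 ± 0.09 (SE; limma adjusted p = 0.668). Rpph1, the RNA of ribonuclease P, which trims the ends of transfer RNAs, had 7.71 and 7.69 (controls) against 8.03 and 7.94 (iodine), a difference of 0.28 ± 0.08 (SE; limma adjusted p = 0.668). The differences of these 3 lay between 0.28 and 0.40, beside 0.79 for Rn28s1, with the gap between them not tested. Rmrp, the RNA of ribonuclease MRP, which cuts the rRNA precursor, had 7.93 and 8.04 (controls) against 7.90 and 7.90 (iodine), a difference of -0.08 ± 0.08 (SE; limma adjusted p = 0.833). Terc, the telomerase RNA, stood at -0.09 and Vaultrc5 at 0.08, and the groups overlapped for both.

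A wider class was taken from the table's own gene types after these values were seen, so it carries no test. It held 28 genes, all tested and without Rn28s1. Rn7sk, Rn7s1, Rpph1, Rmrp and Terc of the list above were among them, so Rn7sk, Rn7s1 and Rpph1 are counted again here. Of the 28 genes 10 (35.7%) were brighter on both iodine arrays and 4 dimmer on both, against 17.9% and 21.9% of all genes. Without scaling it was 9 and 8, where 6.78% and 40.1% of all genes separated in those directions. Genes typed as small nuclear RNAs were brighter on both iodine arrays in 5 of 7 and RNase P RNA genes in 3 of 4. Those typed as snoRNAs were brighter in 0 of 11 and dimmer in 3 of 11. The differences of these 11 ran from -0.22 to 0.09. Those of the 7 typed as small nuclear RNAs, with Rnu3b1 (0.08) among them, ran from 0.06 to 0.33. The types were not checked gene by gene. Whether the kinds differed was not tested. No gene of the class passed limma's adjusted p of 0.05. Among settings of scaling or background correction, lower genes with an unadjusted limma p under 0.05 numbered 1 without scaling and 2 with the median background subtracted. They numbered 1 under each normexp setting. In the main setting 9 genes had an unadjusted p under 0.05, all higher, where 3.89% of all genes were higher and 3.49% lower. That number fell to 2 without control replicate 2, 4 without control replicate 3, 3 without 20-fold iodine replicate 2, 6 without 20-fold iodine replicate 3 and 3 without scaling.

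U1 RNA recognises the start of introns during splicing. The probe of its gene Rnu1b6 had log2 signals of 11.65 and 11.76 (controls) against 12.04 and 11.98 (iodine), a difference of 0.31. Rnu1a1 (0.31) and Rnu1b1 (0.24) are copies of the same RNA, and Rprl1 (0.46, on a dim probe) and Rprl3 (0.26) are relatives of Rpph1. These probes may therefore share target RNA and are not independent. Among snoRNAs, Snord33, a guide for rRNA methylation, had 7.73 and 7.85 (controls) against 7.61 and 7.61 (iodine), a difference of -0.19.

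**Figure D3:**
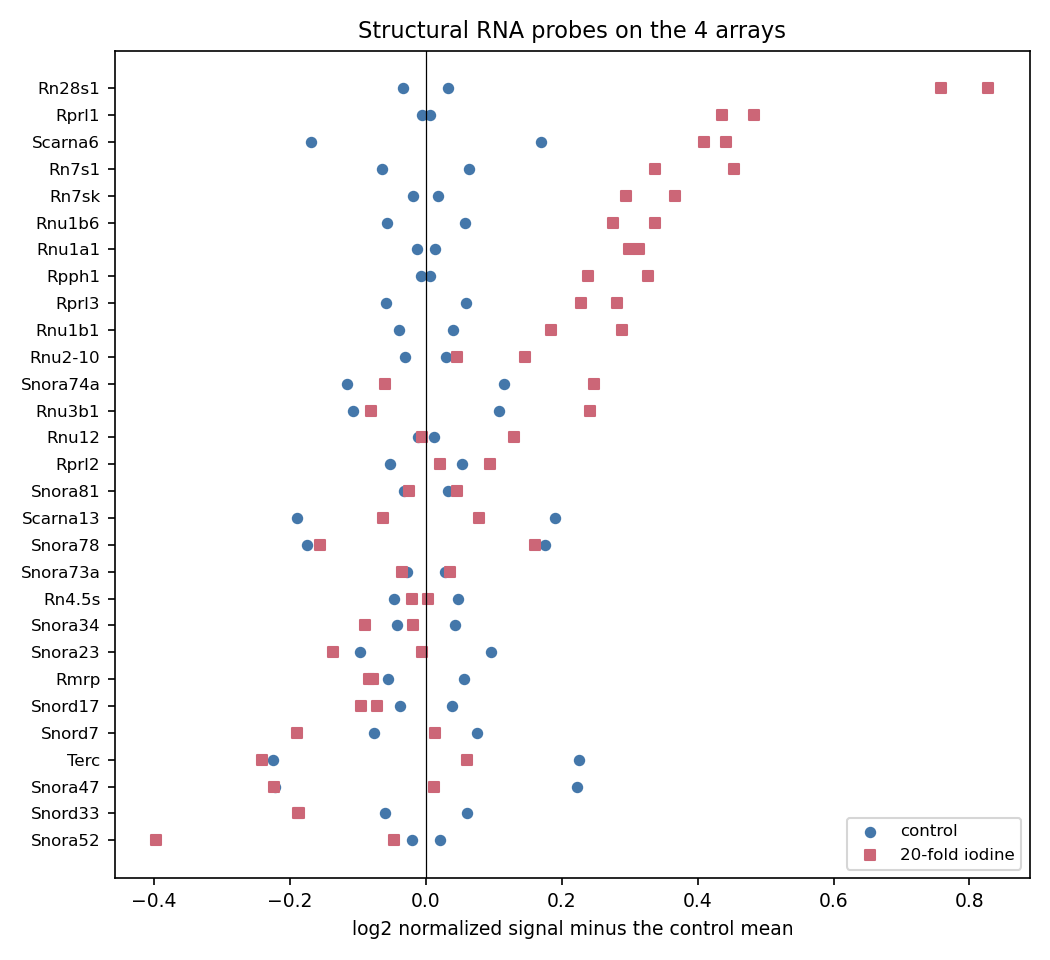
Normalized log2 signal minus the control mean (horizontal axis) on the 4 arrays for Rn28s1 and 28 other structural RNAs (rows, by difference), with controls as circles and 20-fold iodine as squares. The Rn28s1 row has the largest difference (0.79), followed by Rprl1 (0.46), Scarna6 (0.43) and Rn7s1 (0.40). The probes of Rprl1 (log2 signals of 3.93 to 4.42) and Scarna6 (2.16 to 2.78) are dim. The 11 genes typed as snoRNAs lie between -0.22 and 0.09.

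Genes that transcribe rRNA showed no common direction. Of 18 genes of the RNA polymerase I list 15 were tested, 5 with a higher and 10 with a lower value in iodine, with a median difference of -0.02 that changed sign in 3 of 16 settings. None passed limma's adjusted p of 0.05, and 0 had an unadjusted p under 0.05. The arrays separated upward in 3 of 15 and downward in 4 of 15, near the 17.9% and 21.9% of all genes. Ubtf, the factor that opens rRNA genes for transcription, had 13.56 and 13.66 (controls) against 13.81 and 13.79 (iodine), a difference of 0.19 ± 0.08 (SE; limma adjusted p = 0.696). Rrn3, which recruits the polymerase, differed by -0.10, and its groups did not overlap, but it was positive in 2 of 16 settings. The catalytic subunits Polr1a and Polr1b differed by 0.07 and 0.22 (Polr1b 0.02 without control replicate 3). Ttf1, which ends transcription of the repeat, differed by -0.34 on a dim probe (log2 signals of 3.28 to 3.81). Its difference ran from -0.61 to -0.04 over all settings, and was -0.16 without control replicate 2.

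Processing and nucleolar genes were all measured, 37 of 37, with 16 higher, 21 lower and a median of -0.02, which changed sign in 2 of 16 settings. None passed limma's adjusted p of 0.05, and 3 had an unadjusted p under 0.05, all lower, where 3.49% of all genes did so. Npm1, the abundant nucleolar chaperone nucleophosmin, had 11.57 and 11.58 (controls) against 11.37 and 11.34 (iodine), a difference of -0.22 ± 0.07 (SE; limma adjusted p = 0.668). Its 3 kept probes gave -0.25 to -0.22. Rrs1, which acts in assembly of the large subunit, differed by -0.20 and Utp15, of the small subunit processome, by -0.22. The nucleolar proteins Ncl, nucleolin, and Fbl, the methyltransferase fibrillarin, differed by 0.03 and -0.09, and Ncl changed sign in 5 of 16 settings.

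Cytosolic ribosomal protein genes, whose products assemble on rRNA, had 85 of 88 tested and a median difference of -0.03, with 24 higher and 61 lower. The arrays separated upward in 12 and downward in 29, beside 17.9% and 21.9% of all genes. None passed limma's adjusted p, and 1 had an unadjusted p under 0.05, lower, as 3.49% of all genes did. That gene was Rpl39, at -0.23, with 5 kept probes between -0.23 and -0.03. Rpl37 stood at 0.36 on a dim probe (0.19 without control replicate 2). The median was above 0 in 1 of 16 settings.

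The remaining lists covered other kinds of RNA. The snoRNA host genes had 10 tested and a median of 0.01, which changed sign in 6 of 16 settings. The groups separated upward in 0 of 10 and downward in 1, beside 17.9% and 21.9% of all genes, with Snhg1 at -0.18 and Snhg5 at 0.12 (-0.04 without 20-fold iodine replicate 2). Replication-dependent histone genes, most of whose messages end in a stem-loop in place of a poly(A) tail, had 16 tested and a median of 0.07, which changed sign in 3 of 16 settings, with the linker histone genes H1f3 at 0.74 and H1f4 at 0.31 (0.16 without control replicate 3). H1f3 was dim, with log2 signals of 3.47 and 3.42 (controls) against 4.02 and 4.33 (iodine), and its difference was as low as 0.13 in 1 setting. Nuclear long noncoding RNAs had 7 tested and a median of -0.02, which changed sign in 2 of 16 settings. Meg3 stood at 0.23 (0.09 without control replicate 3), with its 4 kept probes between -0.04 and 0.23, and Rian at -0.54. Rian rested on control replicate 3, at 10.79 against 9.94 in control replicate 2 and 9.81 and 9.84 in the iodine samples, and its difference was -0.12 without that array. Reference genes had 9 tested and a median of -0.04, with Gapdh at 0.04, Actb at -0.10, Ppia at -0.12 and Hprt at -0.16, and Gapdh changed sign in 3 of 16 settings. None of these 42 genes passed limma's adjusted p of 0.05.

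**Figure D4:**
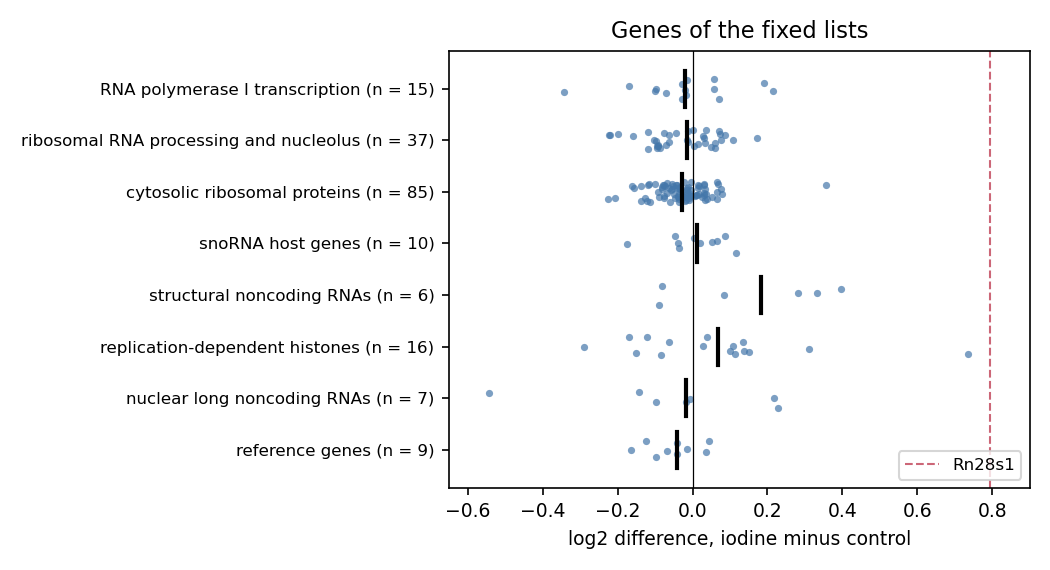
Log2 difference, iodine minus control (horizontal axis), of the tested genes of 8 fixed lists (rows), with the list median as a bar and the Rn28s1 difference as a dashed line. The medians of all lists but the structural noncoding RNAs (0.18) lie between -0.04 and 0.07, and no point reaches the Rn28s1 line.

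Markers of other tissues were set beside Rn28s1. Of 4 pituitary hormone genes 3 were tested (Gh, Prl and Cga, with Tshb too dim). All 3 were brighter on both iodine arrays, as were Rn28s1 and 17.9% of all genes. Their summed normalized signal was 220 and 734 (controls) against 1868 and 1280 (iodine), and the part of pituitary RNA in the Rn28s1 result was not tested. Choroid plexus markers (4 of 4 tested) summed to 24181 and 21386 (controls) against 7898 and 40059 (iodine), so the groups overlapped. Summed meningeal markers were 2633 and 3212 (controls) against 1927 and 2834 (iodine), thalamus and habenula markers 1345 and 1198 against 1101 and 2025, and blood markers 8377 and 11099 against 10628 and 10759. These 3 sums overlapped as well. Of the 4 thalamus and habenula markers 1, Prkcd, was brighter on both iodine arrays (0.70), and the groups of the others overlapped.

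The genes whose 4-array pattern lay closest to that of Rn28s1 were found by the root mean square distance between normalized log2 signals, each centred on its own mean, over 14901 named genes well above background on all 4 arrays. With 4 arrays this is a description only. The 5 closest were Kcnq1, a potassium channel gene, at a distance of 0.04, Capn11, a calpain gene, at 0.06, Cuedc1 at 0.09, the olfactory receptor gene Olfr122 at 0.10 and Stpg1 at 0.10. All were far dimmer than Rn28s1, at log2 signals of 2.34 (Olfr122) to 7.18 (Capn11). Their differences were 0.75, 0.76, 0.67, 0.92 and 0.72. The smallest value over all settings was 0.13 for Kcnq1, 0.14 for Cuedc1, 0.08 for Olfr122 and 0.13 for Stpg1, against 0.53 for Capn11. For the first 4 it came with normexp on the median spot signal and quantile normalization, and which of these choices lowered it was not tested. Other kept probes of Kcnq1 went down to -0.26.

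The Rn28s1 difference kept its direction under every setting that was run. Across 12 other settings it lay between 0.70 and 0.85, folds of 1.63 to 1.81. Leaving out each array in turn gave 0.76 to 0.83, a step that could not change the direction, since the groups did not overlap. Rn28s1 was chosen for its difference, so nothing is read from the kept direction.

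**Figure D5:**
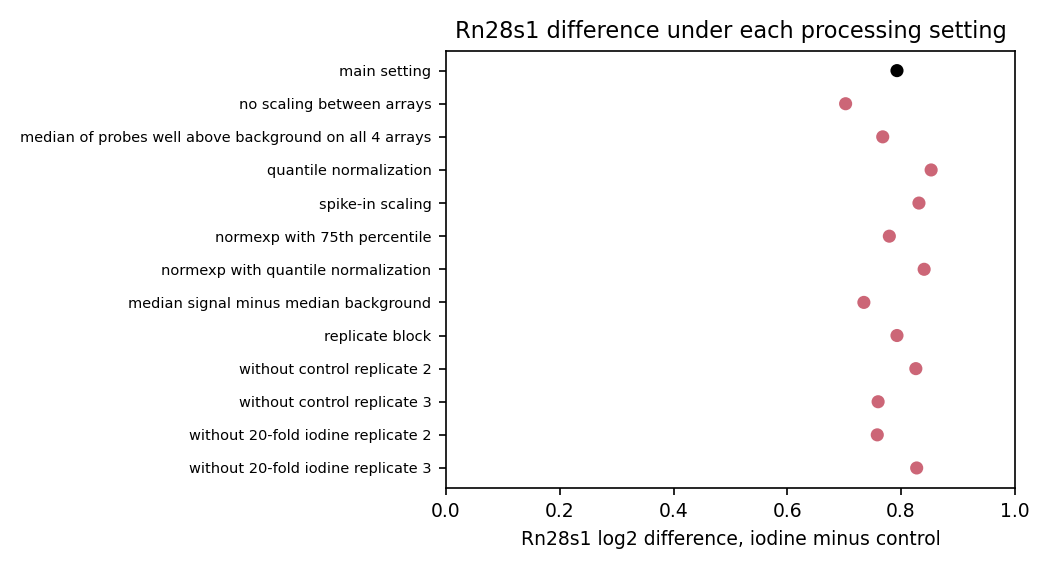
Rn28s1 log2 difference, iodine minus control (horizontal axis, from 0), under the main setting (black) and 12 others (red). The values lie between 0.70 without scaling and 0.85 with quantile normalization.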

How the data were processed

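Scanner output, 1 file for each array, was deposited by the authors. Per the file headers it came from Feature Extraction version 12.1.1.1. The processed signal is an intensity from which, per the file headers, background and spatial trends had been removed inside each array, with no normalization between arrays. Spot and background median intensity columns were also deposited by the authors, and the mean spot signal was not used here. Flags were taken as deposited.

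Signals were put on the log2 scale, spots of a probe averaged without outlier flags, and the 75th percentile of each array subtracted. A probe was kept if 2 or more of the 4 arrays had it well above background. Genes were named by unversioned transcript accession through a RefSeq table (GRCm38.p6), naming 32994 of 56605 probes. The array's header names another build, so no coordinates are given. A gene is its brightest kept probe. The limma package (3.58.1) fitted the differences (two-sided, lmFit then eBayes, with Benjamini-Hochberg over all probes or all genes and a threshold of 0.05) in R 4.3.3 with the data.table package (1.17.8), and the procedure was tested on simulated data. Plots used matplotlib 3.10.9 in Python 3.11.15.

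The members, lists and rules were chosen with earlier results of these data known. Named were the Rn28s1 probe, 16 fixed genes, the 2 genes per list of smallest unadjusted p and the 5 closest in pattern. Of the fixed genes Gas5, mt-Rnr1, mt-Rnr2 and Malat1 were not tested. Rn7s1, Utp15, the probes without a gene name and the wider class were partly named after their values were seen. The number of arrays limits the precision.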

Additional observations from a re-analysis of the deposited data

How the results depend on the processing

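Rn28s1 kept its direction in all 12 settings, but it was chosen for that difference, so nothing is read from this. Its difference was 0.70 without scaling, 0.85 with quantile normalization and 0.73 with the median background subtracted from the median signal, and 0.76 to 0.83 when an array was left out. The causes were not tested. Whether the replicate numbers pair the samples is not known from the labels. The correlation of same-numbered deviations was -0.02 over 38228 probes, and with so few arrays it cannot show whether samples were paired. The difference stayed 0.79 with the replicate number as a replicate block, as it must when both groups hold the same replicate numbers. With that block 3031 probes had an unadjusted limma p under 0.05 against 3451.

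The number of probes with separate groups and a fold of at least 1.5 (430 higher, 373 lower) was 242 and 595 without scaling, 372 and 430 with scaling to the median, 351 and 440 with quantile normalization, 521 and 315 with spike-in scaling, 20 and 53 with normexp, 23 and 50 with normexp and quantile normalization, 138 and 595 with the median background subtracted, 1557 and 1241 with no filter on dim probes and 247 and 194 with a filter on all 4 arrays. It was 615 to 925 higher and 498 to 1063 lower when an array was left out (849 and 606 without control replicate 3, 769 and 727 without control replicate 2). An array left out leaves 1 in its group, which separates from the others more easily. The count past limma's adjusted p was 25 with normexp and 53 with an intensity trend and robust variances, against 0. Both normexp settings and the subtraction used the median spot signal. No list member passed under any setting.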
